A study of Mus musculus with 5 samples.

Results

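Zinc finger protein genes were described in adult mouse retina and newborn mouse cortex. They were taken as the genes whose only symbol in the annotation of the array probes begins with Zfp and a digit, Zkscan, Zscan, Zbtb, Zc3h, Zmym or Zmat, a rule that uses names and no measured value. It found 195 genes on 237 probes, of which 193 genes had a value on all 5 arrays, among 8798 named genes measured in this way. The label rests on these symbols, since no protein sequences were used here. Earlier results of these data were known when the members were chosen.

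Each array carried total RNA from 2 pools. One pool was retina of adult C57/B6 mice, labelled with Cy5, and the other was cortex of Swiss-Webster mice at postnatal day 1, labelled with Cy3. The labels name the 5 arrays technical replicates, so there is 1 pool per tissue, with no spread between animals, and tissue, age, strain and dye change together. The series was made to learn how far expression values vary within an array platform. Values below are log2 ratios of retina over cortex (the deposited log10 ratios times 3.32), given as mean ± SD (n = 5 arrays). No source used here states the base of the logarithm or which tissue is on top, so both are the likely reading. A reversed direction would turn the sign of each value. It would put the 3 measured rod and cone markers, at 2.97 to 4.30 here, higher in newborn cortex than in adult retina. In pooled tissue, fewer cells of a type and less RNA per cell cannot be told apart.

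A zinc finger is a short fold of a protein held in place by a zinc ion. Chains of C2H2 fingers read DNA, and the many mouse Zfp genes that also carry a KRAB domain recruit the co-repressor TRIM28, which brings histone methylation and silences transposons and imprinted loci. BTB proteins pair through the BTB domain and recruit the NCOR and BCOR co-repressors, SCAN domains join proteins of the Zscan and Zkscan groups, and CCCH fingers bind RNA. In developing brain several of these factors set the identity of neurons, while others serve in every cell.

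Few zinc finger genes differed by more than 2-fold between the retina pool and the cortex pool. Zfp365, whose protein binds the scaffold DISC1, was 4.89-fold higher in retina, and Zfp57, which keeps DNA methylation at imprinted loci, was 4.82-fold higher. Zbtb22, a BTB factor, was 2.65-fold higher, and Zfp948 was 2.43-fold lower. The limma 2-fold test (a test against a log2 ratio of 1 in size, Benjamini-Hochberg adjusted over all 8798 genes, threshold 0.05) thus passed 4 of 193 zinc finger genes, 3 higher and 1 lower. That is 2.07%, beside 6.63% of all genes tested, of which 2.8% were higher and 3.83% lower. No test of the difference between these shares was made.

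Zfp365 read 2.18, 2.32, 2.33, 2.24 and 2.37 on arrays 1 to 5, a mean of 2.29 ± 0.07 with an adjusted p of 9.64e-07 in the limma 2-fold test. Zfp57 read 2.21, 2.29, 2.18, 2.26 and 2.40, a mean of 2.27 ± 0.08 with a limma adjusted p of 1.30e-06. Zbtb22 read 1.40, 1.41, 1.43, 1.46 and 1.33, a mean of 1.40 ± 0.05 with a limma adjusted p of 8.05e-05. All readings of these 3 genes lay above 2-fold on every array, and each gene had 1 probe. Each of them passed the limma 2-fold test with any 1 array left out.

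Zfp948 read -1.24, -1.28, -1.41, -1.09 and -1.39 on arrays 1 to 5, a mean of -1.28 ± 0.13 with a limma adjusted p of 0.0122. All 5 readings were below -1, but the call rests on 1 of 2 probes. The second probe had no value on array 4 and read -0.13, -0.42, -0.13 and -0.49 on arrays 1, 2, 3 and 5. With that probe counted, Zfp948 stood at -0.87 and did not pass, with a limma adjusted p of 1, and without array 5 it stood at -1.25 with a limma adjusted p of 0.051.

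**Figure D1:**
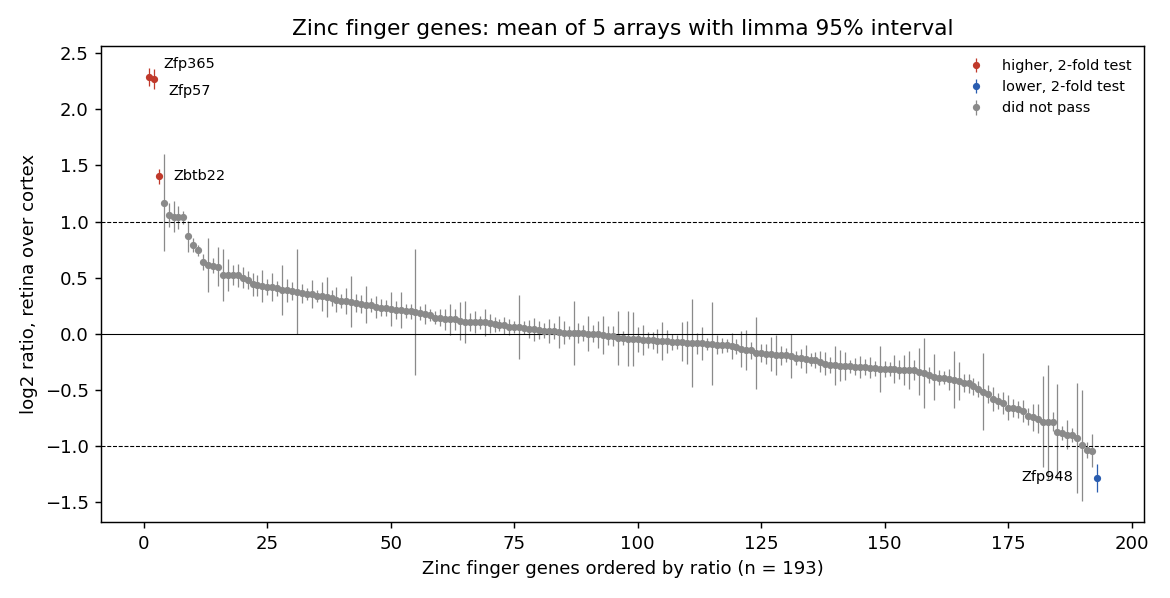
Log2 ratio of retina over cortex for 193 zinc finger genes in order of the ratio. Points are means of 5 arrays, bars are limma 95% intervals, dashed lines mark 2-fold, and colour marks the limma 2-fold test. Zfp365, Zfp57 and Zbtb22 stand above the upper line and Zfp948 below the lower one, while most genes lie between the lines.

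The promoters of the 4 genes are printed because these genes carry the calls. Each sequence is 300 bases of RefSeq on GRCm38.p6, from 250 bases before the start of the gene to 50 after it, and is written 5′ to 3′ on the strand of the gene. Zfp57 has 3 starts in the table and its first is shown. Capitals mark TAATCC or its other strand GGATTA, the core read by CRX and OTX2, homeodomain factors of photoreceptors and bipolar cells.
Zfp365, chr10:67912613-67912912, minus strand: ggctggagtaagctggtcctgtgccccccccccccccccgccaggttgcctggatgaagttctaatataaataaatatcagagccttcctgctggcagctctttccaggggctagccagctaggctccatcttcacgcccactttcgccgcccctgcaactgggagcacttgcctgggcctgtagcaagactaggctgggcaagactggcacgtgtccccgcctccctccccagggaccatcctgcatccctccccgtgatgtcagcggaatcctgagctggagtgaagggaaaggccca
Zfp57, chr17:37000913-37001212, plus strand: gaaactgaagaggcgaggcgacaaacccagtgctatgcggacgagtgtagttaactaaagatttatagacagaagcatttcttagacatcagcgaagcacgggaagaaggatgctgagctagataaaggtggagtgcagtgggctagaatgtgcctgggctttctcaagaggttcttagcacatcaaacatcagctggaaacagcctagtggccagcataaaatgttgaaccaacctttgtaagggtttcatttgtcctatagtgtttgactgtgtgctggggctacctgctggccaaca
Zbtb22, chr17:33915926-33916225, plus strand: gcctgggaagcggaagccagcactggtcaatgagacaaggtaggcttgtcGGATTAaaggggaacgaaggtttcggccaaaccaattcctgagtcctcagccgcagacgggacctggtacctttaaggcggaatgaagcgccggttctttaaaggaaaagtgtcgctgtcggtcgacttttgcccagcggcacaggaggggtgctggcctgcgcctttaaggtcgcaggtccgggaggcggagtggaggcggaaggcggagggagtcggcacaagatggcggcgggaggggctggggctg
Zfp948, chr17:21566728-21567027, plus strand: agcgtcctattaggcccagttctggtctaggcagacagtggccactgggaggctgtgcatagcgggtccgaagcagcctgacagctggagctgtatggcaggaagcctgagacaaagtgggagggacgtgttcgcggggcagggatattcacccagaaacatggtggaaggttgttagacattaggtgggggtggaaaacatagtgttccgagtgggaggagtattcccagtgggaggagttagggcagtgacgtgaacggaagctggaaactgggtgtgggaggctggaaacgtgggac

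The Zbtb22 promoter held 1 match to the TAATCC core on either strand, and those of Zfp365, Zfp57 (all 3 starts) and Zfp948 held 0. Among the 191 promoters in the table for 158 measured zinc finger genes, 6.28% held a match, beside 5.43% of the 9168 promoters of all genes measured and 7.06% of all 32851 promoters in the table. The Zbtb22 promoter held 22 CpG sites, that of Zfp948 10, that of Zfp365 8 and the Zfp57 promoter shown 6. The median was 18 for zinc finger genes and 20 for all genes measured. A match is a description of these letters and not a binding site.

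In all, 4 motifs were searched on both strands, and they were chosen after the ratios were seen. TGCCGC, the core that ZFP57 reads when methylated, was in 21.5% of the zinc finger promoters, beside 19.2% of those of all genes measured and 11.6% of the whole table, and the Zbtb22 promoter held 1. The E-box CACGTG, its own reverse complement, was in 13.1%, beside 10.3% and 7.15%, and the Zfp365 promoter held 1. The ETS core CCGGAAG was in 19.4%, beside 16.6% and 8.86%, and none of the 4 genes held it. Promoters of genes measured hold more CpG than the whole table, and 3 of the 4 motifs contain CG. No difference between these shares was tested.

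Beyond the 4 calls, 7 more zinc finger genes had a mean of at least 2-fold and did not pass the test. Zscan29, a SCAN domain gene, read 1.44, 0.37, 1.46, 1.06 and 1.53 on arrays 1 to 5, a mean of 1.17 ± 0.48. Array 2 stood low, and without it the gene stood at 1.37 with a limma adjusted p of 0.048, just inside the threshold. Zbtb11, which in zebrafish is needed for neutrophil development, stood at 1.06 ± 0.10, but its 2 probes differed, at 0.22 and 1.90. Zfp219, a partner of SOX9 in cartilage, stood at 1.04 ± 0.14, Zfp612 at 1.04 ± 0.11 and Zfp740 at 1.04 ± 0.03.

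On the lower side, Zfp821 stood at -1.03 ± 0.05 and Zfp9 at -1.04 ± 0.15. The readings of Zfp821 were -1.07, -1.04, -1.08, -0.95 and -1.03, so 1 of 5 fell inside 2-fold. The closest gene inside 2-fold was Zfp882, at -0.99 ± 0.55. The 11 genes with a mean of at least 2-fold were 5.70% of the zinc finger genes, beside 9.66% of all genes.

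**Figure D2:**
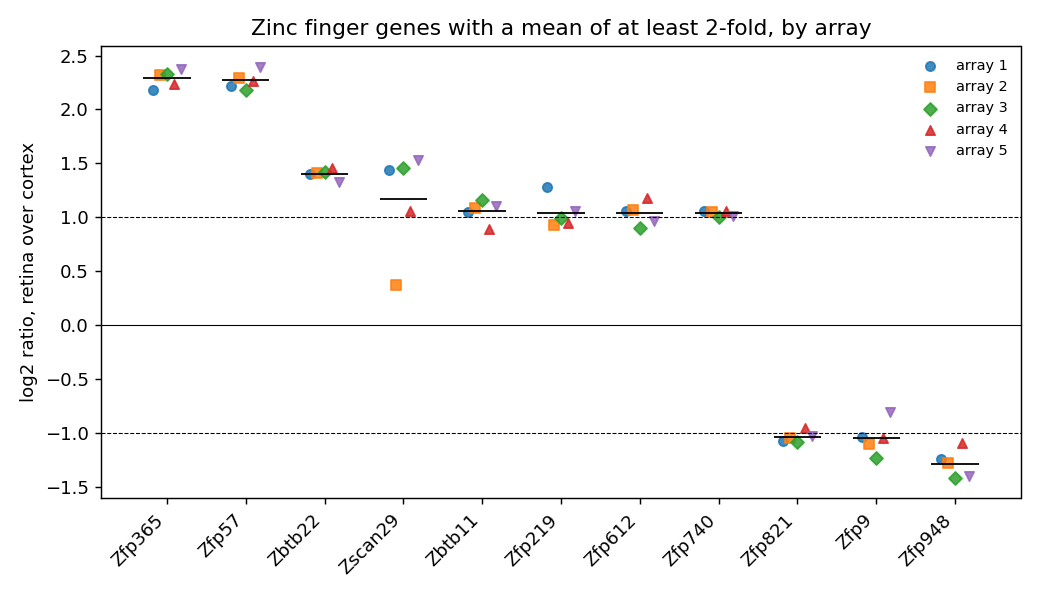
Log2 ratio of retina over cortex on each of the 5 arrays for the 11 zinc finger genes with a mean of at least 2-fold. Symbols are arrays, short lines are means and dashed lines mark 2-fold. The readings of Zfp365, Zfp57 and Zbtb22 lie close together, and the array 2 reading of Zscan29 lies at 0.37, apart from its other 4.

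Small ratios were common among the zinc finger genes and went both ways. Against a ratio of 0, limma called 141 of 193, 67 with a ratio above 0 and 74 below, which is 73.1% beside 73.7% of all genes tested (37% above 0 and 36.7% below). That share is near the background and is no result about zinc finger genes, and dye or probe effects that repeat on every array can enter it. The median ratio was -0.04, beside -0.00 over all genes, and the middle 50% lay between -0.29 and 0.23, beside -0.30 and 0.23. The tails differed more: the 5th and 95th percentiles were -0.78 and 0.76, beside -1.05 and 0.90 over all genes. For 175 of 193 zinc finger genes the limma 95% interval of the ratio lay wholly inside 2-fold, which is 90.7%, beside 86.6% of all genes. For 142 of them, or 73.6%, it lay wholly inside 1.5-fold, beside 68.3%.

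**Figure D3:**
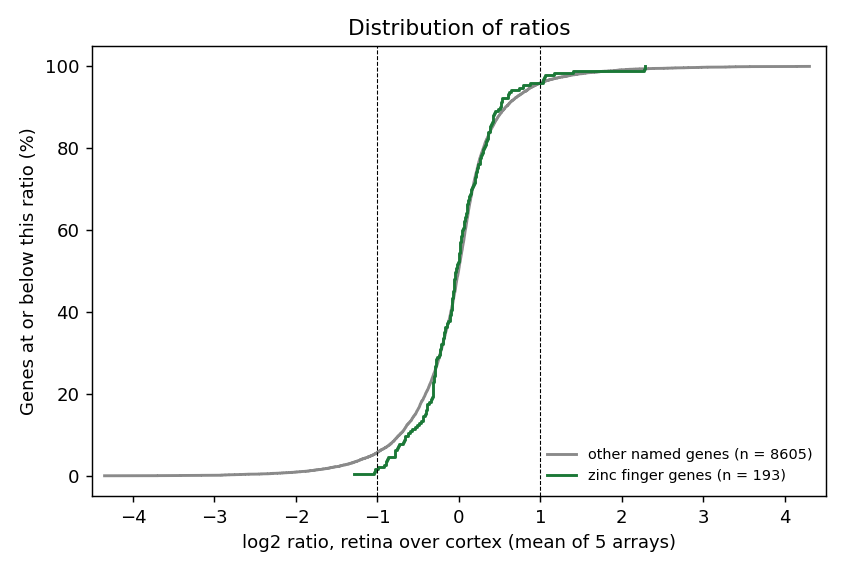
Share of genes at or below each log2 ratio of retina over cortex, for 193 zinc finger genes and 8605 other named genes. Dashed lines mark 2-fold. The curves lie close together near 0, and the zinc finger genes, far fewer in number, span -1.28 to 2.29.

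Among the 149 Zfp genes, 2 were higher, 1 was lower and 146 did not pass, with a median ratio of -0.05. The 3 that passed are 2.01%, beside 6.63% of all genes, and the difference was not tested. Besides Zfp57, the KRAB gene Zfp445, which also guards imprinted loci, read 0.29, 0.24, 0.21, 0.10 and 0.22, a mean of 0.21 ± 0.07. Zfp445 thus stood above 0 on every array and far below Zfp57. Zfp410, an activator of Chd4, stood at 0.26 ± 0.07, a mean of 3 probes at -0.06, 0.07 and 0.77 that differ in sign, and Chd4, the remodeller it activates, at 0.07 ± 0.17.

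Zfp423, a factor of cerebellar and olfactory development, read -0.85, -0.87, -0.76, -0.70 and -0.73, a mean of -0.78 ± 0.08. Its limma 95% interval, -0.87 to -0.70, excludes both 0 and 2-fold. Zfp503, a factor of the developing striatum, stood at 0.64 ± 0.06, above 0 on every array. Zfp335, whose human counterpart is mutated in a microcephaly, was at -0.31 ± 0.05. Zfp462, whose human counterpart is mutated in a developmental syndrome, was at -0.23 ± 0.13, and Zfp804a, named for a human locus linked to schizophrenia, at -0.02 ± 0.08. None of these 5 passed the 2-fold test.

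Zfp598, a ubiquitin ligase that senses collided ribosomes, stood at 0.61 ± 0.05, and Zfp622, a factor of ribosome assembly, at -0.11 ± 0.05. Zfp451, a SUMO ligase, stood at -0.60 ± 0.06, a mean of 2 probes at -1.34 and 0.14 that differ in sign, and it passed the 2-fold test where the lower probe stood for the gene. Zfp207, which binds the checkpoint protein BUB3 at kinetochores, read -0.26, -1.13, -0.49, -1.34 and -1.14, a mean of -0.87 ± 0.47. Arrays 1 and 3 stood apart from the other 3 for Zfp207, whose limma 95% interval ran from -1.29 to -0.45.

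Zfp36 encodes tristetraprolin, which binds AU-rich elements and speeds the decay of mRNAs for cytokines. It read -0.03, -0.35, 0.02, 0.02 and -0.09, a mean of -0.08 ± 0.15 with a limma interval from -0.23 to 0.06. Zfp91, a ubiquitin ligase, stood at 0.19 ± 0.04, Zfp148, a GC-box binding factor, at -0.29 ± 0.12 and Zfp292 at 0.41 ± 0.05, a mean of 2 probes at 0.12 and 0.70. Zfp42, the pluripotency marker Rex1, read 0.02, -0.27, -0.10, -0.54 and -0.85, so 1 array lay above 0 and 4 below.

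Of 16 BTB genes, 1 passed the 2-fold test, Zbtb22, and the median ratio was -0.03. That is 6.25%, near the 6.63% of all genes, and is no result about BTB genes. Zbtb40 (0.87 ± 0.14) and Zbtb24 (0.52 ± 0.08), which is linked to DNA methylation at centromeric repeats, stood above 0 and did not pass. Zbtb20, a factor of hippocampal and upper-layer cortical neurons, read -0.49, -0.35, -0.50, -0.48 and -0.52, a mean of -0.47 ± 0.07. Array 2 was the least negative of the 5. Zbtb33, the methyl-CpG binding factor Kaiso, stood at -0.42 ± 0.19. The lowest BTB gene was Zbtb41, at -0.74 ± 0.06, whose 2 probes read -1.26 and -0.21.

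The SCAN genes did not pass the test, which 6.63% of all genes passed. The 7 Zkscan genes lay between -0.32 and 0.29 and the 6 Zscan genes between -0.90 and 1.17. Zkscan5 was the highest of its class at 0.29 ± 0.04 and Zkscan7 the lowest at -0.32 ± 0.09. Zkscan3, a repressor of autophagy genes, stood at 0.13 ± 0.09. Zscan18 read -1.03, -0.87, -0.98, -0.92 and -0.68, a mean of -0.90 ± 0.13, with 1 reading beyond 2-fold. The genes Zscan4a (-0.08 ± 0.21) and Zscan4f (-0.31 ± 0.13) belong to a family of close copies expressed in mouse embryos at the start of their own transcription, and probes may not tell such copies apart.

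Genes with Zc3h, Zmym and Zmat symbols did not pass the 2-fold test either, which 6.63% of all genes passed. The 7 Zc3h genes lay between -0.58 and 0.36. Zc3h18, a link between capped RNA and the nuclear exosome, led them at 0.36 ± 0.08. Zc3h13, part of the complex that writes N6-methyladenosine on RNA, stood at -0.31 ± 0.05. The lowest was Zc3hc1, at -0.58 ± 0.10, which stands here by its symbol and not as a CCCH gene. Zmym2 and Zmym3, both partners of the LSD1 demethylase complex, stood at -0.34 ± 0.23 and 0.06 ± 0.03. The highest of the 4 MYM genes was Zmym6, at 0.13 ± 0.14.

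Of the 4 matrin-type genes Zmat1 was highest, with readings of 0.73, 0.74, 0.76, 0.76 and 0.74. Its SD of 0.01 was small beside the median SD of 0.0876 over the zinc finger genes. Zmat5, a protein of the minor spliceosome, stood at 0.52 ± 0.15. Zmat3, an RNA-binding target of p53, was lowest at -0.23 ± 0.06.

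Genes of the complexes that zinc finger proteins recruit were looked up as lists. Of 20 measured genes of the KRAB co-repressor list, 1 was lower and 19 did not pass, with a median ratio of -0.15. That is 5%, near the 6.63% of all genes. The lower gene was Chd3, a remodeller of the NuRD complex, with readings of -1.58, -1.60, -1.57, -1.59 and -1.32 and a limma adjusted p of 3.80e-04. Trim28 itself stood at -0.23 ± 0.05 and its histone methyltransferase partner Setdb1 at 1.01 ± 0.09, which did not pass. The heterochromatin genes Cbx5 (-0.50 ± 0.07), Cbx3 (-0.41 ± 0.05) and Cbx1 (0.07 ± 0.10) did not pass.

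In the BTB co-repressor list 0 of 10 genes passed the limma 2-fold test, adjusted or at an unadjusted p under 0.05, with a median of 0.03. Of all genes 6.63% passed the adjusted test, and the difference was not tested in so short a list. Its farthest gene from 0 was Bcor, at 1.02 ± 0.14. Of 4 measured genes of the LSD1 complex, 1 was higher, Hmg20b at 1.17 ± 0.10 with a limma adjusted p of 0.0427. That is 25% of a very short list, beside 2.8% of all genes that were higher. Hmg20b lost the call with array 1, 2, 4 or 5 left out. Hdac1, in the KRAB list too, stood at 1.04 ± 0.12 and did not pass. The LSD1 median of 0.65 rests on these 4 genes.

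Of 27 genes of mRNA deadenylation and decay, the machinery that Zfp36 calls on, 1 was higher and the median was 0.02. That is 3.7%, beside 6.63% of all genes, of which 2.8% were higher. The higher gene was Tob2, an adaptor of the CCR4-NOT deadenylase, at 1.88 ± 0.03, a mean of 2 probes, and its lower probe, at 0.32, would not have passed. Of 9 measured mRNAs with AU-rich elements, 1 was higher, or 11.1% of this short list. This was the stress gene Ier3, with readings of 2.89, 2.49, 2.82, 2.37 and 2.52 and a limma adjusted p of 2.37e-05. Tnf, the best known Zfp36 target, read 0.44, 1.63, 0.64, 0.69 and 0.54, a mean of 0.79 ± 0.48 with array 2 apart. The list median was -0.09. In 3 of the 9 genes, Tnf among them, the SD between arrays exceeded 0.4 log2, or 33.3%, beside 4.00% of all genes.

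Other C2H2 factors, whose symbols the rule leaves out, passed the 2-fold test for 7 of 57 genes, 2 higher and 5 lower, or 12.3%. This share stands beside 6.63% of all genes (2.8% higher and 3.83% lower) and 2.07% of the zinc finger genes, as a description with no test. Bcl11a, a factor of cortical projection neurons, stood at -2.44 ± 0.04 and Hivep2 at -2.01 ± 0.05. The hormone-responsive Klf9, a mean of 2 probes, stood at 1.62 ± 0.02. The list median of -0.03 was close to that of the zinc finger genes.

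Zinc finger genes often lie side by side in the genome. By gene order in RefSeq on GRCm38.p6, 82 members stood next to another gene of the rule and 109 did not, while 2 could not be placed. Of the neighbouring members 0 were higher and 1 was lower, and of the others 3 were higher and 0 lower. These are 1.22% and 2.75%, beside 6.63% of all genes, and the difference between them was not tested. Their median ratios were -0.06 and 0.01. Zfp948 lies in a run of 7 such genes, of which Zfp52, the other one measured, stood at -0.15. This split was chosen after the values were seen. Of 19 runs with several measured members, 52 genes in all, 9 had ratios of 1 sign and 6 had a range under 0.5 log2. Most of these runs had only 2 measured members, which often share a sign by chance. No share for runs of other genes was computed, so these counts are no result about neighbours. As examples, the run with Zfp229, Zfp820, Zfp942, Zfp943 and Zfp994 had all 5 ratios below 0, from -0.74 to -0.20. In the run with Zfp459, Zfp58, Zfp729a, Zfp729b and Zfp748 they went from -0.41 to 0.61. Neighbours are often similar in sequence, and cross-hybridisation between them was not tested.

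The arrays repeated nearly as closely for zinc finger genes as for all genes. The median SD between arrays was 0.0876 log2 beside 0.0852, and 141 of 193 genes, or 73.1%, kept 1 sign over the 5 arrays, beside 73.5%. Pearson's r between arrays, across the 193 genes, ran from 0.838 to 0.953 with a median of 0.906 over 10 pairs. The median across all genes was 0.923. Across the 182 zinc finger genes with a mean within 2-fold, r was lower, from 0.747 to 0.913 with a median of 0.837. No such value was computed for all genes. Genes are not independent replicates and share an array's dye and surface, so no p is given.

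For 10 zinc finger genes the SD exceeded 0.4 log2, which is 5.18% beside 4.00% of all genes. Array 2 held the reading farthest from the gene's median in 7 of these 10, and in 165 of the 352 such genes overall. Zfp882 read -0.62, -1.84, -0.49, -1.24 and -0.75, and Zfp398 read -0.44, -1.78, -0.55, -0.69 and -1.16. Zfp81 went from -1.63 on array 2 to -0.18 on array 3. Zc3h6 read 0.43, -0.81, 0.89, 0.11 and 0.36, with array 2 alone below 0. Array 2 gave the lowest of the 5 readings in each of those 7 genes, and array 4 the next lowest in all of them but Zfp398. Zfp574, outside the 7, read -0.28, -1.05, -0.30, -1.08 and -1.19, with arrays 1 and 3 above the others. The limit of 0.4 log2 was chosen after the values were seen.

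**Figure D4:**
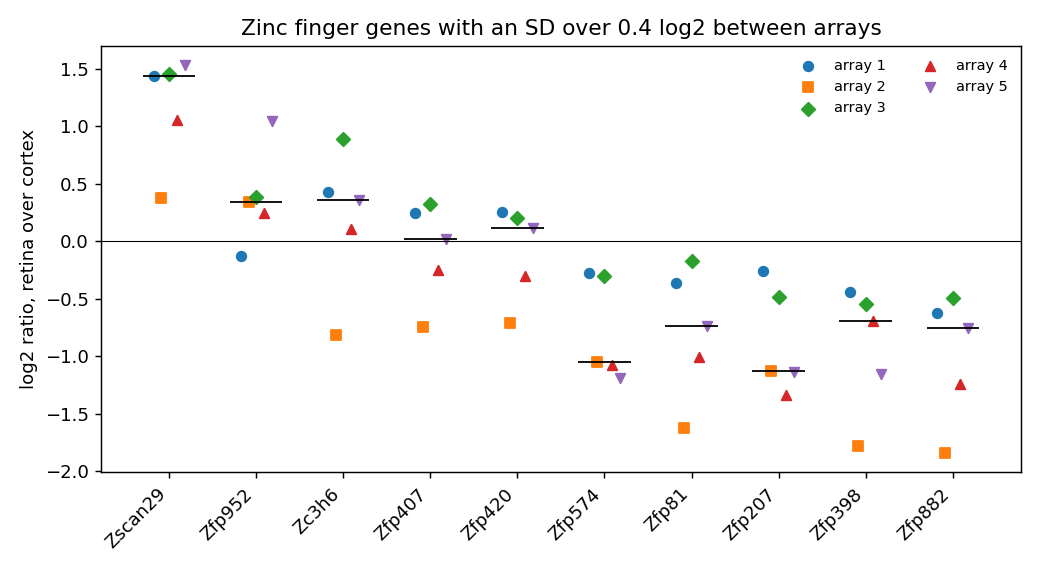
Log2 ratio of retina over cortex on each array for the 10 zinc finger genes with an SD over 0.4 log2. Symbols are arrays and short lines are medians over the 5 arrays. Array 2 lies farthest from the line in 7 of the 10 genes, among them Zc3h6 at -0.81.

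Several probes of a gene did not always give the same ratio. Of 30 zinc finger genes with several probes, 15 had probes that differed in sign, or 50%, beside 40.7% of all 2086 such genes. The median range between the probes of a gene was 0.40 log2, beside 0.38. The range exceeded 1 log2 in 4 of the 30, for Zbtb11, Zfp451, Zbtb41 and Zfp830. For Zfp830 the probes went from -0.63 to 0.39. The 2 probes of Zfp821, at -1.10 and -0.97, were close.

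**Figure D5:**
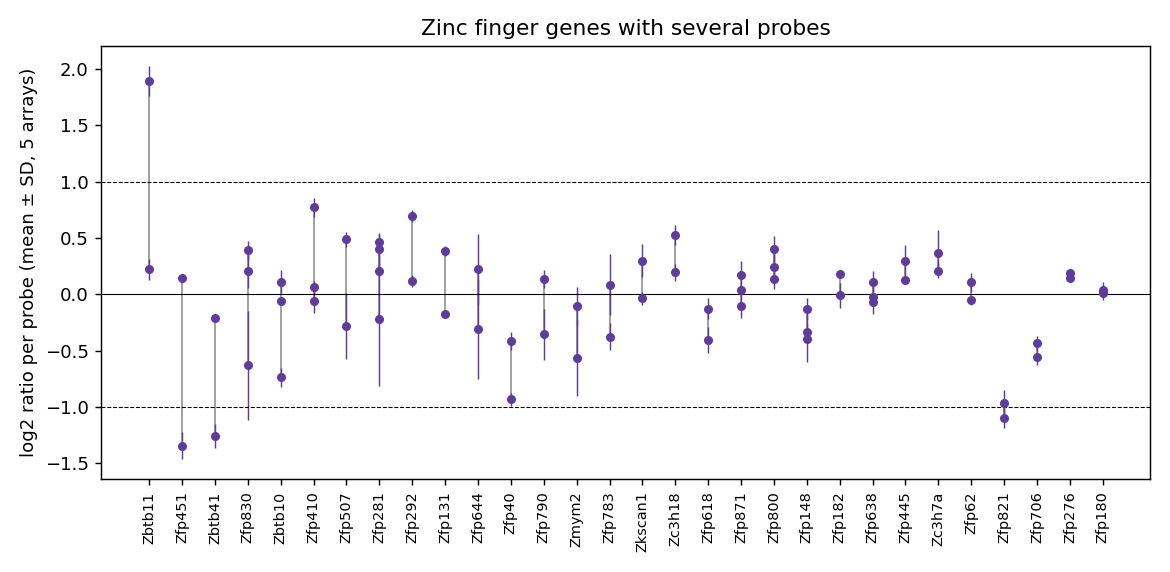
Log2 ratio of retina over cortex of each probe for the 30 zinc finger genes with several probes, in order of the range between probes. Points are means and bars are SDs over 5 arrays, grey lines join the probes of a gene and dashed lines mark 2-fold. The widest ranges are those of Zbtb11 (1.67) and Zfp451 (1.49).

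The 2 members without a value on every array lacked one on array 4. Zfp110 read 0.87, 0.66, 0.70 and -0.11 on arrays 1, 2, 3 and 5, and Zfp981 lay between -0.11 and 0.09. Over all probes array 4 held 1068 exact 0 values, read here as no value, while the other arrays held 174 to 406.

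The tissues were compared through lists of marker genes. The lists were chosen with earlier results of these data known, so they are no independent check. The 3 measured of 9 rod and cone markers were higher in retina, from 2.97 to 4.30, and the 5 measured of 6 markers of immature neurons were lower, from -3.99 to -2.02. Of 4 markers of Müller glia 2 were higher, while Glul (0.71 ± 0.09) and Vim (0.04 ± 0.12) did not pass. Of 4 markers of cortical projection neurons 3 were lower, while Neurod2 (-0.42 ± 0.01) did not pass. Of 5 meninges markers 3 were lower in retina, while Col1a1 (0.52 ± 0.05), which lay above 0, and Col1a2 (-0.06 ± 0.04) did not pass. The 1 measured gene of 4 on the red cell list (-1.66 ± 0.07) was lower too. So was the 1 measured gene of 4 on the pigment epithelium list (-1.40 ± 0.04). A single gene does not tell which cells gave its signal, so neither value shows how much of that cell type a pool held. For microglia 0 of 3 markers and for muscle 0 of 3 passed the limma 2-fold test, also at an unadjusted p under 0.05. Of 4 markers of dividing cells 2 were lower. The part of these cells in the zinc finger ratios was not tested.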

How the data were processed

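Retina and cortex RNA were compared on 5 two-colour Agilent arrays. The values are log10 ratios as deposited by the authors, with 1 column per array. The base is read from the values, which stop at 2 and -2, and the direction from the dyes per the labels. No source used here gives the background correction, normalization or filters. Precision is limited by the number of arrays, and brightness over background is not known. The annotation gave 1 symbol for 11813 of 21446 probes and several for 559, and did not list 9074. All 195 zinc finger symbols matched RefSeq (GRCm38.p6) by gene identifier.

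An exact 0 was read as no value, and probes complete over the 5 arrays were averaged per gene. limma 3.58.1 in R 4.3.3 fitted an intercept to each gene (lmFit) and tested it against 2-fold (treat) and against 0 (eBayes), two-sided, over all 8798 genes at once. The fit was also run on simulated data with independent noise. That simulation held no repeated dye, probe or pool effect, so it cannot speak to calls that such effects make. The p-values cover only the spread of repeated labelling and hybridisation of the same 2 pools.

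Named were members that passed (up to 14 each way), the highest and lowest of each symbol class, a set of well-known members, the 2 nearest to 2-fold on each side of the call, and up to 3 genes per list. Further examples, the promoter motifs, the split by gene neighbours and the limit for a high SD were chosen after values were seen. Members and lists were chosen with earlier results of these data known. Alternatives covered centring, scaling, missing values, probe rule, prior, noisy genes, log base, minimum fold and each array left out.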

Additional observations from a re-analysis of the deposited data

Results flagged for a closer look

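Among 38 named genes, 5 had 1 array far from the other 4, which chance gives in about 5% of genes. For Zbtb41 array 5 gave -0.63, while the other arrays lay between -0.77 and -0.74. For Zc3hc1 array 5 gave -0.40, while the other arrays lay between -0.65 and -0.60. For Zbtb20 array 2 gave -0.35, with the others from -0.52 to -0.48. For Chd3 array 5 gave -1.32, with the others from -1.60 to -1.57, and for Tob2 it gave 1.82, with the others from 1.89 to 1.90. None of the 5 genes changed sign between arrays. Over all 193 zinc finger genes 5.70% had such an array, beside 8.01% of all genes.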

How the results depend on the processing

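Each array carries both pools, so every ratio is already a comparison within an array. The arrays form 1 group, and no further pairing was possible. The count of zinc finger genes past the 2-fold test was 4, and 3 to 5 with 1 array left out. It was 3 with equal spread per array, with values on at least 3 arrays, and with exact 0 kept as a ratio of 0 (a setting added once the data were seen, like the fit without arrays 1 and 4, which gave 4). Zfp948 was the gene lost in these 3. With the median probe (the lower of 2) it was 6, with Zbtb41 and Zfp451 added, 3 higher and 3 lower. A minimum of 1.5-fold gave 19 and one of 4-fold 2, by construction. With the deposited values read as log2 it was 0, as were the counts of all partner lists, and the median SD was 0.0264. The median ratio went from -0.0497 to -0.00703 with 1 array left out. The median SD was 0.101 after quantile normalization, 0.100 with equal spread and 0.0765 to 0.0911 with 1 array left out. The LSD1 count of 1 was 0 with equal spread and without arrays 1 and 4, and 0 to 1 with 1 array left out. The decay count was 0 with the median probe and among genes with 1 probe, and the other C2H2 factors gave 4 there. Of 598 alternative values of named genes, 574 kept sign and call, 22 lost the call, 2 gained it and 0 turned sign. The causes were not tested. Signal over background is unknown, so what limits dim probes cannot be given.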

Other observations

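Imprinted genes were looked up because Zfp57 is known to guard some imprinted loci, and the list was not limited to those. They were looked up after the values of Zfp57 were seen, so they are given as values with no reading of a link. Of 27 measured on a list of 46, 1 was higher in retina, 2 were lower and 24 did not pass the limma 2-fold test, with a median ratio of -0.06. That is 11.1%, beside 6.63% of all genes. The long noncoding RNAs Meg3 and Rian, which lie in 1 imprinted cluster, stood at -1.57 ± 0.03 and -1.31 ± 0.09, while Dlk1 of the same cluster stood at 1.10 ± 0.07 and did not pass. Commd1, a copper-handling gene, was higher at 1.15 ± 0.07. H19 (0.19 ± 0.10), Igf2 (-0.53 ± 0.05) and Peg3 (-0.17 ± 0.12) did not pass.

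A further 23 probes carry a zinc finger symbol together with another symbol and entered no comparison. Their mean log2 ratios ran from -2.19 to 1.24 with a median of 0.03, and 3 of the 23 were at least 2-fold from 0.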
